A study of Mus musculus with 8 samples.

Results

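Type I interferon response genes are the genes that cells switch on after interferon alpha or beta binds its receptor. Here 39 of them, named by symbol, were followed in mouse macrophages, library by library. All 39 symbols were present in all 8 count tables, among 24421 gene symbols in each, and all 39 passed the filter on low counts that left 13821 genes for testing. The 39 comprise both receptor chains (Ifnar1, Ifnar2), 4 transcription factors (Irf1, Irf7, Irf9, Stat2), the ubiquitin-like modifier Isg15 with its protease Usp18, 4 sensors of foreign nucleic acid (Ddx58, Dhx58, Ifih1, Zbp1), and the antiviral and other induced genes.

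RNA came from primary macrophages of mice on a normal diet. There were 3 wild-type libraries (WT), 3 libraries of genotype LysM-DKO and 2 libraries of genotype ABCG1KO. The series design calls the double mutant Epsin-DKO, so LysM-DKO was read as loss of epsins, the endocytic adaptors encoded by Epn1 and Epn2. LysM usually stands for a Cre driver at the lysozyme gene Lyz2, which acts in myeloid cells, but the labels do not state the driver, the strain, the sex, the age or the tissue. ABCG1 is a transporter that exports cholesterol from cells. The labels do not say whether libraries of a group came from separate mice, so p-values measure the spread between these libraries, which may be technical.

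In the textbook pathway, interferon alpha or beta joins IFNAR1 to IFNAR2, and the kinases JAK1 and TYK2 bound to these chains start a phosphorylation cascade. Phosphorylated STAT2 takes part in a complex with IRF9, which enters the nucleus and binds the interferon-stimulated response element (ISRE) in promoters. Interferon gamma uses another receptor and acts at GAS elements, and many genes, among them Irf1 and the guanylate-binding proteins (Gbp), respond to both kinds of interferon. Macrophages keep a low basal interferon tone and respond strongly to infection.

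The core of the ISRE, a pair of GAAA half-sites with any 2 bases between them on either strand, was searched in RefSeq promoters (GRCm38.p6, 250 bases before to 50 after the start). Of the 39 genes, 30 had an entry, and 15 of these (50%) held at least 1 match, against 3.99% of the 27025 genes with an entry. Some genes had more than 1 promoter window, and 16 of the 37 windows (43.2%) held a match, against 3.44% of all windows. The GAS letters, TTC and GAA with any 3 bases between them, which read the same on both strands, were found in 11 of the 30 (36.7%), against 9.55% of all. Matches to both motifs overlapped in Bst2 and Ifitm3. The 9 genes without an entry were Oas2, Mx1, Mx2, Usp18, Dhx58, Zbp1, Rtp4, Parp14 and Parp9. The 250 bases before the start are shown for 4 genes whose values matter below, Isg15 and Stat2 as pathway components and Gbp2 and Gbp3 as genes that stood far apart in WT 2, with the ISRE core matches in capitals, 5′ to 3′ on the strand of the gene.
Isg15, chr4:156200819-156201068, minus strand: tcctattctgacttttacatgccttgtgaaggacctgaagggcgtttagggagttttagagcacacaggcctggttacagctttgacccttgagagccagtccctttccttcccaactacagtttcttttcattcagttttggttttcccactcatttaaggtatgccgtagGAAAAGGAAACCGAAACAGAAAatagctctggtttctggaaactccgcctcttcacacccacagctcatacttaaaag
Stat2, chr10:128270248-128270497, plus strand: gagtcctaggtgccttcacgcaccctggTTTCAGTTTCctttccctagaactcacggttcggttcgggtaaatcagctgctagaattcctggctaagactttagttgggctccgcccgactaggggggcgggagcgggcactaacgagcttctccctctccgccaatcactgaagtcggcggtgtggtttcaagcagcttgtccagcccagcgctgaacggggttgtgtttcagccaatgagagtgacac
Gbp2, chr3:142620413-142620662, plus strand: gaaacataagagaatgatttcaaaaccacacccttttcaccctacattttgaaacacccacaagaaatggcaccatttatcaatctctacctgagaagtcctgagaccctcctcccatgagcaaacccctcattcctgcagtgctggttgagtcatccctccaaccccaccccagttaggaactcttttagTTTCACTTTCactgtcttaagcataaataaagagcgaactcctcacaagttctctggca
Gbp3, chr3:142559794-142560043, plus strand: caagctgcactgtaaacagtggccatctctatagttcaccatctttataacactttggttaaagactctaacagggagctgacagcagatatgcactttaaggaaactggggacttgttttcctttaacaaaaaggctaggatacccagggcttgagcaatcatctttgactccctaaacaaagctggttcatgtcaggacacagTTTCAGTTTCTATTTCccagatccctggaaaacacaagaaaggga
In Isg15, 3 overlapping matches began 78 to 66 bases before the start. In Gbp3, 2 overlapping matches began 45 and 39 bases before it, and in Gbp2 a single match began 59 bases before it. Another promoter window of Gbp3, chr3:142560106-142560405, held 0 matches and is not shown. The Stat2 match lay farther out, 222 bases before the start. A match describes letters, and binding was not measured.

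Libraries held 29567615 to 41888516 counts in genes, and levels are given in CPM, counts over the TMM-scaled library size on the usual scale of that name. All 10 macrophage markers were detected in every library, with summed levels of 11715 to 22733 CPM. Abcg1 was at 60.4 and 73.4 CPM in ABCG1KO and at 345 to 405 CPM in WT. Epn1 was at 154 to 183 CPM in LysM-DKO, 155 to 182 CPM in ABCG1KO and 191 to 230 CPM in WT, so its level did not set LysM-DKO apart from ABCG1KO. Epn2 was at 5.67, 13.2 and 6.30 CPM in LysM-DKO, 8.18, 8.86 and 4.97 CPM in WT and 18.6 and 18.5 CPM in ABCG1KO, so LysM-DKO and WT overlapped and its level goes against a loss of Epn2 transcript in the libraries labelled LysM-DKO. Which parts of these genes were deleted is not given in the sources used here, and gene-level counts may miss the loss of an exon. Lyz2 was at 6176.2 to 8103.8 CPM in LysM-DKO, 13002.1 to 15707 CPM in WT and 11234.9 to 14409.5 CPM in ABCG1KO. Its level was thus lower in LysM-DKO without overlap, with edgeR adjusted p-values of 0.173 against WT and 0.0336 against ABCG1KO. Whether a driver at Lyz2 accounts for this was not tested, and 15.4% of its sequence is shared with Lyz1. Reads with several alignments made up 6.74% and 6.93% of counted reads in ABCG1KO and 2.65% to 3.01% in the other 6 libraries, and the WT libraries carried a female and both ABCG1KO libraries a male pattern of sex-linked transcripts. Genotype and the share of reads with several alignments cannot be told apart in comparisons with ABCG1KO, nor can genotype and sex pattern in ABCG1KO against WT. LysM-DKO 1 carried the male pattern too, so sex pattern and genotype are only partly confounded between the knockouts.

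The genes differed widely in level. Per kilobase of exon, Ifitm3, a membrane protein that blocks virus entry, had the highest mean level over the 8 libraries, 233 CPM per kilobase. Bst2 (tetherin) followed at 95.0, then Ifnar2 at 48.0, the nucleotide-degrading enzyme Samhd1 at 39.2 and Ifnar1 at 34.5 CPM per kilobase. The lowest were the dynamin-like GTPases Mx1, at 0.511, and Mx2, at 0.183 CPM per kilobase, with Ifi44 between them at 0.499. Mx2 is annotated as a polymorphic pseudogene in the GENCODE annotation of GRCm38.

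The library labelled WT 2 stood apart. It held the highest level of all 8 libraries for 23 of the 39 genes (59.0%), while it held the highest level for 8.93% of all genes tested. Within WT it was the highest for 37 of 39 genes (94.9%, against 32.3% of all genes). The exceptions were Isg20 and Oas3, which were highest in WT 3. Relative to each gene's median over the 8 libraries, the median of the 39 genes was 2.07 in WT 2, 0.959 in WT 1 and 1.00 in WT 3. The ratio of WT 2 to the mean of WT 1 and WT 3 ran from 0.827 for Isg20 to 18.6 for Gbp2, with a median of 1.83, and 18 of 39 genes exceeded 2.

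**Figure D1:**
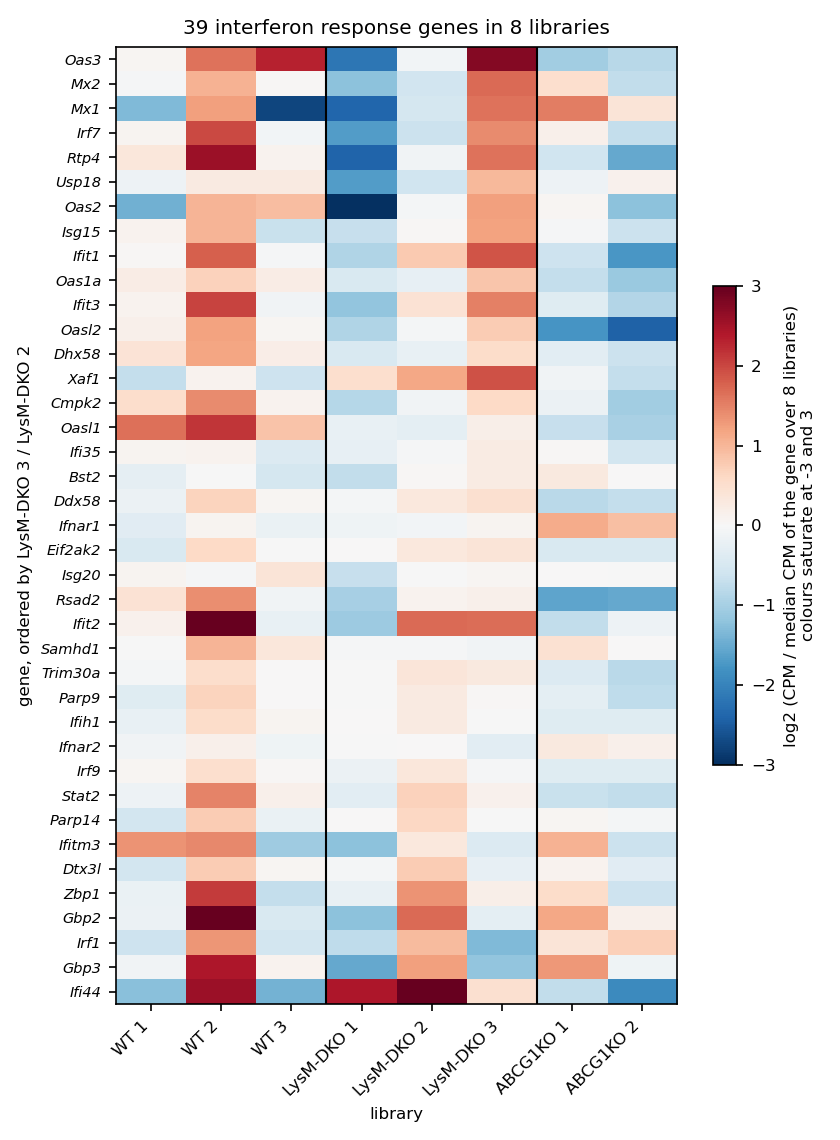
Levels of the 39 genes (rows) in the 8 libraries (columns), as log2 of CPM over the gene's own median across libraries, with rows ordered by the ratio of LysM-DKO 3 to LysM-DKO 2. WT 2 is red for nearly all rows, LysM-DKO 3 is red in the upper rows and LysM-DKO 2 in the lower rows.

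Gbp2, a guanylate-binding protein that attacks membranes around intracellular microbes, had the widest gap. Levels in CPM, in the order of the replicate numbers here and below, were 19.1, 322 and 15.6 in WT, 9.28, 70.2 and 17.6 in LysM-DKO, and 48.0 and 24.1 in ABCG1KO. Its relative Gbp3 was at 13.6, 79.0 and 15.6 CPM in WT, 5.09, 34.4 and 6.40 CPM in LysM-DKO and 36.2 and 13.4 CPM in ABCG1KO. For both genes WT 2 was highest, the second library of LysM-DKO was the highest of its group, and the ranges of all groups overlapped.

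Ifit2, which binds viral RNA and limits its translation, was at 5.71, 46.5 and 4.45 CPM in WT, 2.45, 17.0 and 16.5 CPM in LysM-DKO and 3.14 and 4.67 CPM in ABCG1KO. Ifi44, an induced gene of little known function, was at 0.264, 3.73 and 0.233 CPM in WT, 3.37, 15.5 and 0.875 CPM in LysM-DKO, and 0.376 and 0.165 CPM in ABCG1KO. Mx1 was at 0.557, 3.26 and 0.207 CPM in WT, 0.266, 0.975 and 4.35 CPM in LysM-DKO, and 4.04 and 1.82 CPM in ABCG1KO. WT 2 exceeded the other WT libraries for all 3 genes, and their LysM-DKO libraries peaked in different places, Ifi44 in the second and Mx1 in the third.

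Within LysM-DKO the 39 genes split in this way. LysM-DKO 3 was the highest of the group for 23 genes (59.0%, against 36.9% of all genes). LysM-DKO 2 was the highest for 15 (38.5%, against 30.1%), closer to its share of all genes. LysM-DKO 1 was the highest for Samhd1 alone (2.56%, against 33.0%). It was the lowest for 31 of the 39, and for 4765 of the 13821 genes tested. LysM-DKO 1 alone of its group carried the male pattern of sex-linked transcripts, and the part of this in its levels was not tested. LysM-DKO 3 exceeded LysM-DKO 2 by over 2-fold for 11 genes, among them Oas3 (7.08-fold), Mx2 (4.83-fold), Mx1 (4.46-fold), Irf7 (4.19-fold), Rtp4 (3.32-fold) and Usp18 (2.98-fold). LysM-DKO 2 exceeded LysM-DKO 3 by over 2-fold for 6 genes, which were Ifi44 (17.7-fold), Gbp3 (5.38-fold), Irf1 (4.83-fold), Gbp2 (3.99-fold), Zbp1 (2.26-fold) and Dtx3l (2.04-fold). These ratios compare single libraries, carry no test and were not counted over all genes.

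The spread within a group was wide for these genes in WT and LysM-DKO. The ratio of the highest to the lowest library had a median of 2.46 in WT for the 39 genes and 1.40 for all genes tested, and it exceeded 2 for 26 of 39 genes (66.7%, against 24.7%). In LysM-DKO the medians were 2.66 and 1.39, with 25 of 39 genes over 2 (64.1%, against 27.9%). In ABCG1KO, with 2 libraries, they were 1.36 and 1.31, with 8 of 39 over 2 (20.5%, against 21.4%). Oas3, a synthase of the 2′-5′ oligoadenylates that activate RNase L, spread most within LysM-DKO, at 3.15, 13.5 and 95.9 CPM, next to 14.9, 44.3 and 70.0 CPM in WT and 6.93 and 7.99 CPM in ABCG1KO.

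Genes outside the 39 that respond to interferon gamma were high in the same libraries as Gbp2, and the following were picked with their values in view. Iigp1, a GTPase of the immunity-related family, was at 0.381, 80.0 and 0.0259 CPM in WT, 0.194, 109 and 0.350 CPM in LysM-DKO and 2.95 and 2.33 CPM in ABCG1KO. Cxcl9, a T cell attractant, was at 0, 7.01 and 0 CPM in WT, 0.0242, 8.41 and 0.0250 CPM in LysM-DKO and 1.98 and 1.16 CPM in ABCG1KO. Ciita, the master regulator of MHC class II genes, was at 5.28, 42.1 and 4.76 CPM in WT, 2.57, 22.1 and 3.30 CPM in LysM-DKO and 18.3 and 17.1 CPM in ABCG1KO. WT 2 and LysM-DKO 2 thus shared high Iigp1, Cxcl9 and Ciita, while LysM-DKO 3, which led for Oas3 and Usp18, was low for all 3 genes.

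Counts of the interferons themselves were close to 0. Of 21 listed ligand genes, 18 had no count in any library, Ifnb1 and every listed Ifna gene among them. The listed Ifna genes share from 6.45% (Ifna4) to 67.4% (Ifna1) of their sequence with other annotated genes, so their counts are uncertain. For Ifnb1 the share was 0%. Ifng, the gene of interferon gamma, had 6 counts in WT 2, 9 in LysM-DKO 2, 4 in ABCG1KO 1 and 0 in the other 5 libraries. Summed markers of T and NK cells reached 5.30 CPM in WT 2 and 6.46 CPM in LysM-DKO 2, while the other 6 libraries held 1.98 to 4.13 CPM, and 2 of the 11 markers found in the tables were at 0 in each of those 2 libraries against 5 to 9 elsewhere. Summed B cell markers were at 33.7 CPM in WT 2, 17.8 CPM in ABCG1KO 1 and 0.0969 to 7.47 CPM elsewhere, and 7 of the 8 B cell markers were highest in WT 2. The part of these cell types in the levels above was not tested, and in bulk RNA fewer cells of a type and less RNA per cell cannot be told apart.

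**Figure D2:**
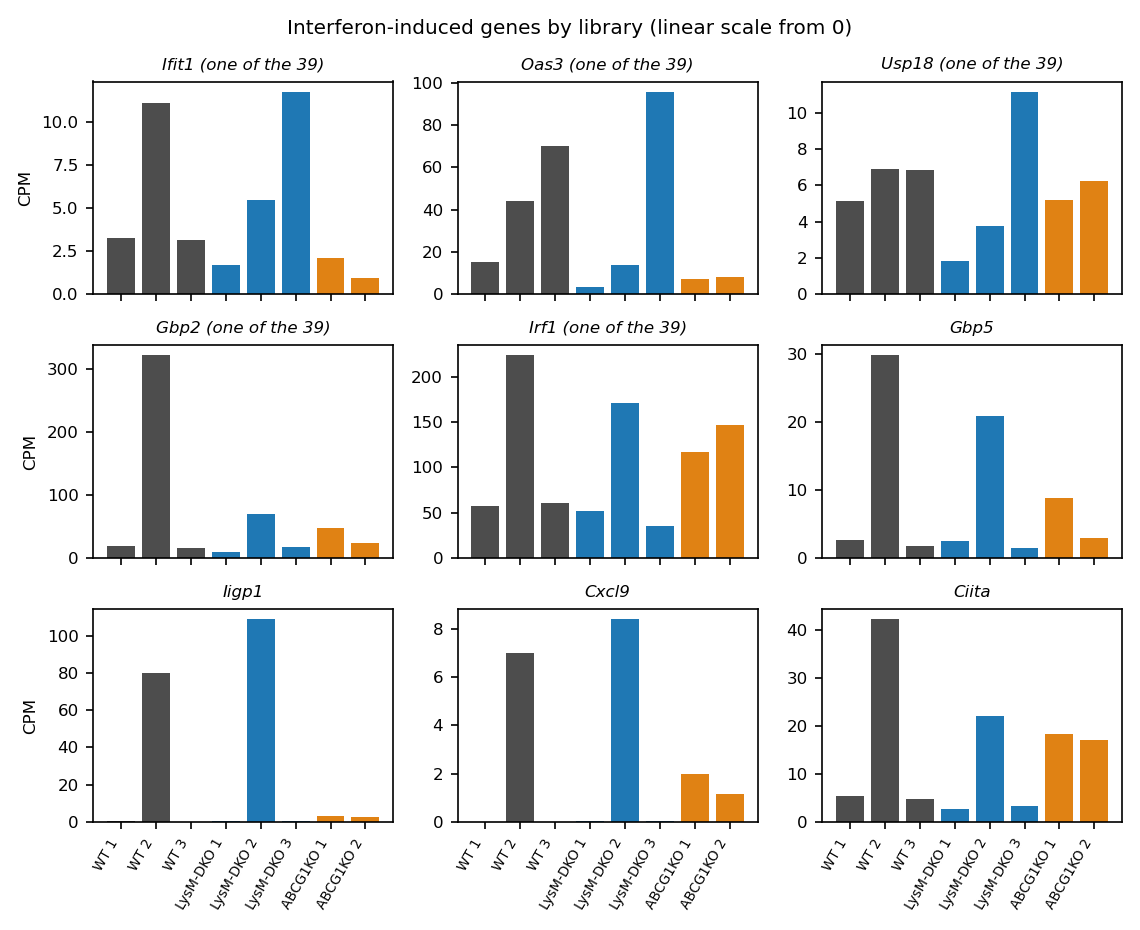
CPM of 5 of the 39 genes and of Gbp5, Iigp1, Cxcl9 and Ciita in each library (bars, linear scale from 0; grey WT, blue LysM-DKO, orange ABCG1KO). Ifit1, Oas3 and Usp18 peak in LysM-DKO 3 and the other 6 in WT 2 or LysM-DKO 2.

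For LysM-DKO against WT, no gene of the 39 passed the test. By edgeR's quasi-likelihood test with Benjamini-Hochberg adjustment over all genes, 0 of 39 were called, and 0.0362% of all genes tested were (5 of 13821, 0.0217% higher and 0.0145% lower). At an unadjusted p under 0.05 there were 2 of the 39 and 1611 of the 13821 genes. DESeq2 called 2 of the 39, Oasl1 and Xaf1, and 2.18% of all genes. Fitted changes were negative for 25 genes and positive for 14, with a median log2 fold change of -0.20, against 0.02 for all genes. This median turned to 0.22, with 26 positive and 13 negative, when WT 2 was left out, and again no gene was called, with 5 of the 39 and 1165 of 13713 genes at an unadjusted p under 0.05.

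Xaf1, an apoptosis-linked gene induced by interferon, was the only member of the 39 whose LysM-DKO libraries all lay above WT. It was at 8.03, 14.1 and 8.62 CPM in WT, 18.6, 29.5 and 49.6 CPM in LysM-DKO, and 12.3 and 8.04 CPM in ABCG1KO. The log2 fold change of LysM-DKO over WT was 1.67 ± 0.39 (SE) with an edgeR adjusted p of 0.270 and a DESeq2 adjusted p of 0.00360. In all, 1 of 39 genes was higher without overlap, against 11.0% of all genes, and 2 were lower without overlap, against 9.98%.

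These 2 were Oasl1 and Samhd1. Oasl1, an OAS-like protein known as a brake on the translation of Irf7, was at 12.3, 17.4 and 7.17 CPM in WT, 3.39, 3.22 and 4.47 CPM in LysM-DKO and 2.45 and 2.00 CPM in ABCG1KO. Against WT, Oasl1 in LysM-DKO had a log2 fold change of -1.73 ± 0.35 (SE), with an edgeR adjusted p of 0.213 and a DESeq2 adjusted p of 0.000596. Samhd1 was at 300, 612 and 380 CPM in WT, 294, 291 and 281 CPM in LysM-DKO and 411 and 302 CPM in ABCG1KO. For Samhd1 this change was -0.58 ± 0.26 (SE), with an edgeR adjusted p of 0.433, and the LysM-DKO libraries lay close together just below the lowest WT library.

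Among the transcription factors, Stat2 and Irf7 showed how far WT 2 carried a group mean. For Irf1, WT 2 was 3.80 times the mean of WT 1 and WT 3, and for Irf9 only 1.36 times. Stat2 was at 42.5, 133 and 52.0 CPM in WT, 38.0, 76.5 and 51.9 CPM in LysM-DKO and 29.8 and 28.4 CPM in ABCG1KO. Irf7, the factor that amplifies interferon production, was at 14.7, 54.0 and 12.9 CPM in WT, 4.29, 8.80 and 36.9 CPM in LysM-DKO and 15.5 and 8.44 CPM in ABCG1KO. WT 2 exceeded the other libraries for both genes, and the LysM-DKO libraries fell among those of WT except for Irf7 in LysM-DKO 1 and 2 and Stat2 in LysM-DKO 1.

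Against WT, the log2 fold change in LysM-DKO was -0.45 ± 0.44 (SE) for Stat2 and -0.71 ± 0.85 for Irf7, with edgeR adjusted p-values of 0.692 and 0.757. Without WT 2 both turned positive, to 0.21 and 0.25. Gbp2, at -1.88 ± 1.25 (SE, adjusted p = 0.568), turned to 0.87, and Ifit2, at -0.66 ± 0.99 (SE, adjusted p = 0.817), to 1.21. The fitted direction changed for 12 of the 39 genes when WT 2 was left out. Other libraries mattered too, with changes for 8 genes without WT 1, 10 without WT 3 and 8 without LysM-DKO 3. It changed for 4 without LysM-DKO 1 and 5 without LysM-DKO 2. Without LysM-DKO 3 the median log2 fold change of the 39 was -0.60, with 31 negative and 8 positive.

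**Figure D3:**
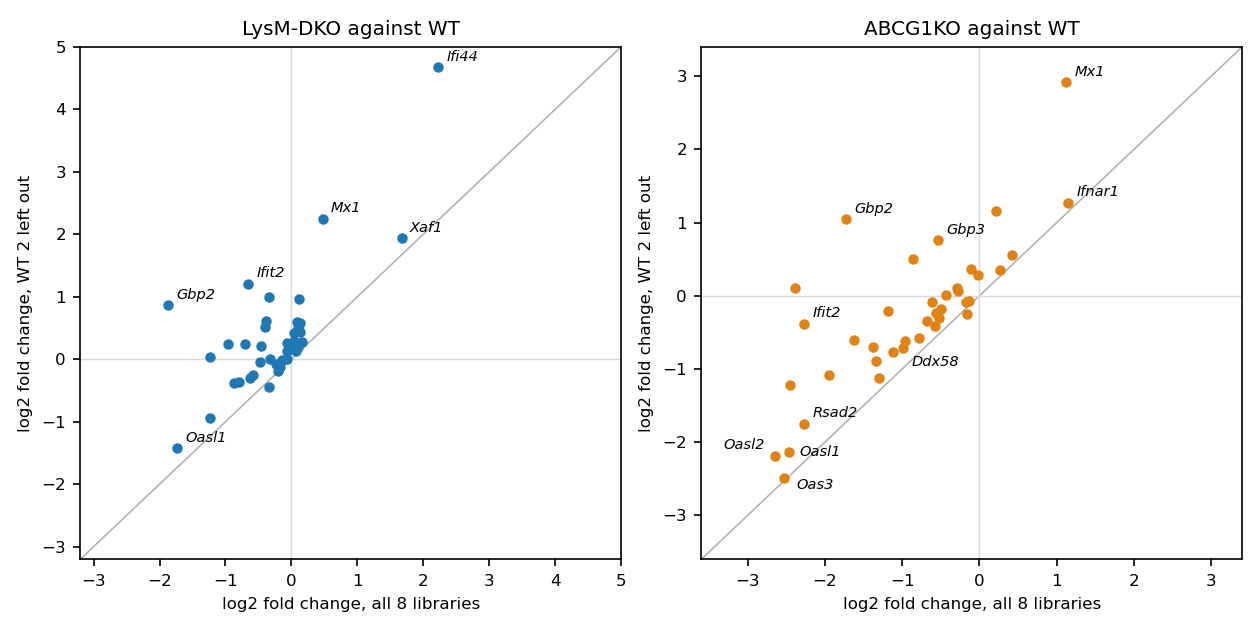
Fitted log2 fold changes of the 39 genes with all 8 libraries (x axis) and without WT 2 (y axis), for LysM-DKO (left) and ABCG1KO (right) against WT, with the diagonal marking equal values. All points but Isg20 lie above the diagonal, and the Gbp2 points change sign in both panels. In the right panel Ifnar1 goes from 1.15 to 1.27 and Oasl1 from -2.47 to -2.14.

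For ABCG1KO against WT, 5 of the 39 genes were called by edgeR (12.8%), against 16.0% of all genes tested. Ifnar1 rose, and Oasl1, Oasl2, Rsad2 and Ddx58 fell. The share called higher was 2.56% (7.21% of all genes) and lower 10.3% (8.83% of all genes). Fitted changes were negative for 34 genes and positive for 5, with a median of -0.68 against 0.01 for all genes. DESeq2 called 10 of the 39 and 23.4% of all genes. Without WT 2 the median was -0.23, with 25 negative and 14 positive, and 4 genes were called, the same without Ddx58, against 8.65% of all genes. With ABCG1KO 1 or ABCG1KO 2 left out, 2 genes were called each time, Ifnar1 and Oasl1, against 5.97% and 12.9% of all genes.

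The receptor chains were the highest in ABCG1KO of all groups. Ifnar1 (chr16:91485238-91507441, plus strand, GRCm38) was at 134, 179 and 149 CPM in WT, 155, 161 and 179 CPM in LysM-DKO and 366 and 318 CPM in ABCG1KO. Ifnar2, whose gene lies close by on the same chromosome, was at 146, 174 and 144 CPM in WT, 156, 160 and 127 CPM in LysM-DKO and 195 and 177 CPM in ABCG1KO. Both ABCG1KO libraries exceeded all others for both genes.

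Ifnar1 rose 2.22-fold over WT, with a log2 fold change of 1.15 ± 0.16 (SE) and an edgeR adjusted p of 0.00344, from a mean of 154 ± 23.2 CPM (SD, n = 3) to 342 ± 34.3 CPM (SD, n = 2). It was called against WT in every alternative run. Ifnar2 had a log2 fold change of 0.26 ± 0.16 (SE) with an adjusted p of 0.291. Against ABCG1KO, LysM-DKO was lower in Ifnar1, with a log2 fold change of -1.05 ± 0.16 (SE) and an adjusted p of 0.00622, and for Ifnar2 it was -0.33 ± 0.16 with an adjusted p of 0.195. Of the exon bases of Ifnar2, 9.46% overlap the annotated gene Gm21970, and the strand setting of the counting is not given in the sources used here.

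The OAS-like genes, neighbours on chromosome 5, fell furthest among the called genes. Oasl1 (chr5:114923240-114937915) reached 18.1% of the WT level in ABCG1KO, with a log2 fold change of -2.47 ± 0.42 (SE) and an edgeR adjusted p of 0.00789, and it was called in every alternative run. Oasl2 (chr5:114896936-114912234), which in the mouse retains synthase activity, was at 51.6, 106 and 48.1 CPM in WT, 24.7, 44.1 and 78.7 CPM in LysM-DKO and 13.5 and 8.54 CPM in ABCG1KO. In ABCG1KO it had a log2 fold change of -2.64 ± 0.58 (SE) with an adjusted p of 0.0223, or 16.0% of the WT level. The adjusted p of Oasl2 was 0.0870 without ABCG1KO 1, 0.101 without ABCG1KO 2 and 0.0586 with a replicate block. For both genes the ABCG1KO libraries lay below every other library.

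Rsad2 (viperin, an enzyme that makes a chain-terminating nucleotide) was at 19.2, 37.6 and 13.2 CPM in WT, 7.12, 15.2 and 15.8 CPM in LysM-DKO and 4.77 and 4.91 CPM in ABCG1KO. Its log2 fold change in ABCG1KO was -2.27 ± 0.52 (SE) with an edgeR adjusted p of 0.0231, and 0.123 and 0.0876 without ABCG1KO 1 and 2. Ddx58, which encodes the RNA sensor RIG-I, was at 31.9, 57.0 and 37.4 CPM in WT, 34.8, 44.9 and 50.5 CPM in LysM-DKO and 20.5 and 21.9 CPM in ABCG1KO. Its log2 fold change was -0.99 ± 0.27 (SE) with an adjusted p of 0.0401, and without WT 2 it was -0.71 with an adjusted p of 0.0804. The adjusted p was also above 0.05 without WT 3 (0.0661), LysM-DKO 2 (0.0594), ABCG1KO 1 (0.158) or ABCG1KO 2 (0.101). The same held with library size only (0.0862), a fit of both groups alone (0.0622) and a replicate block (0.0601).

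**Figure D4:**
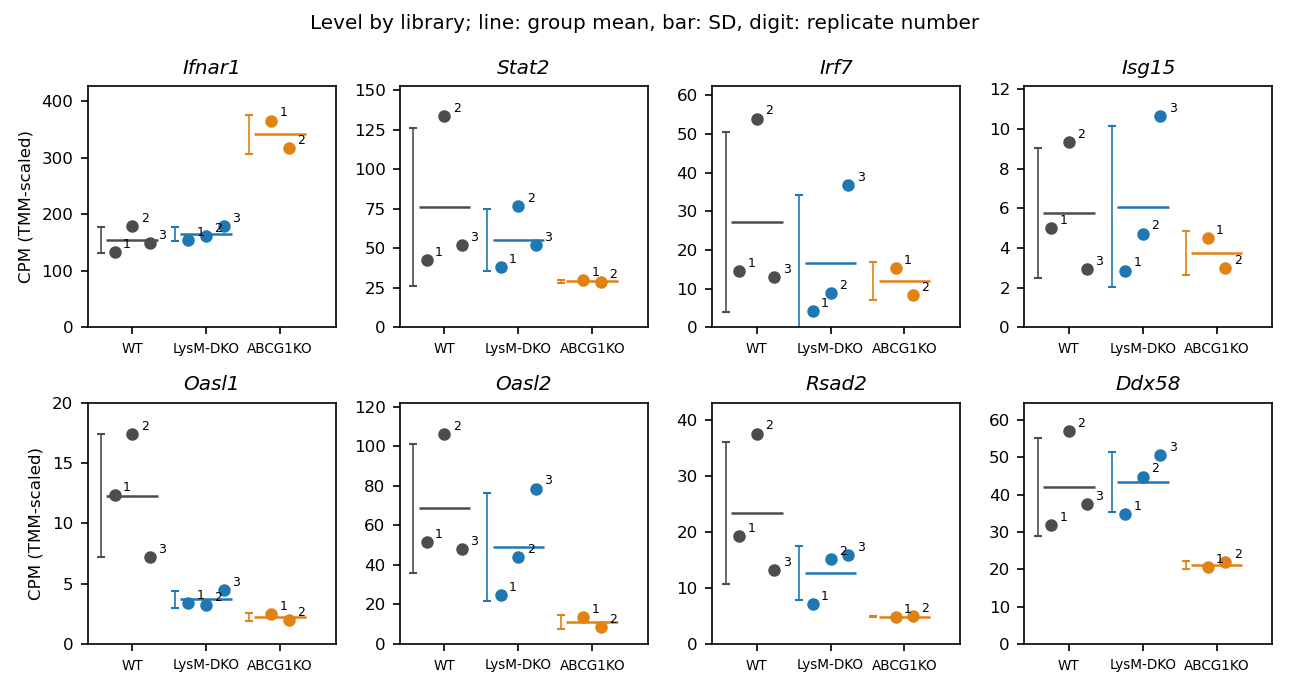
CPM of 8 of the 39 genes in each library (points, numbered by replicate), with group means (horizontal lines) and SD (bars, cut at 0). The ABCG1KO points of Ifnar1 lie above all others, those of Oasl1, Oasl2, Rsad2 and Ddx58 below all others, and WT 2 is the top WT point in every panel.

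The components of the factor complex had negative log2 fold changes in ABCG1KO that did not pass edgeR's test. Stat2 had a log2 fold change of -1.38 ± 0.52 (SE, adjusted p = 0.111), which was -0.70 without WT 2 (adjusted p = 0.193). Irf9, the DNA-binding part, was at 48.5, 65.2 and 47.2 CPM in WT, 41.4, 58.5 and 45.5 CPM in LysM-DKO and 35.9 and 35.9 CPM in ABCG1KO. For Irf9 the log2 fold change was -0.58 ± 0.20 (SE) with an edgeR adjusted p of 0.0876, and without WT 2 it was -0.42 (adjusted p = 0.214). DESeq2 called both, with adjusted p-values of 0.018 for Stat2 and 0.0474 for Irf9. Over the other alternatives the adjusted p ran up to 0.281 for Stat2 and 0.272 for Irf9. Both genes lay below every other library in ABCG1KO.

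Trim30a, a TRIM-family regulator of signalling, was at 66.6, 99.7 and 70.3 CPM in WT, 68.5, 89.6 and 85.2 CPM in LysM-DKO and 52.5 and 39.6 CPM in ABCG1KO. Its log2 fold change in ABCG1KO was -0.78 ± 0.23 (SE) with an edgeR adjusted p of 0.0510. In all, 15 of 39 genes were lower in ABCG1KO than in WT without overlap, against 24.2% of all genes, and 3 were higher, against 23.9%: Ifnar1, Ifnar2 and Bst2. Bst2 (tetherin, which holds budding virions at the membrane) was at 75.1, 89.6 and 62.7 CPM in WT and at 112 and 92.1 CPM in ABCG1KO, with LysM-DKO at 54.1, 93.5 and 107 CPM.

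Not all of the pathway was low in ABCG1KO. Isg15 was at 4.98, 9.33 and 2.92 CPM in WT, 2.86, 4.73 and 10.6 CPM in LysM-DKO and 4.51 and 2.97 CPM in ABCG1KO, with a log2 fold change of -0.62 ± 0.65 (SE, adjusted p = 0.554) in ABCG1KO. Usp18, which removes ISG15 and damps receptor signalling, was at 5.13, 6.93 and 6.88 CPM in WT, 1.79, 3.75 and 11.2 CPM in LysM-DKO and 5.17 and 6.27 CPM in ABCG1KO. The ABCG1KO values of both genes lay within the range of WT.

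Irf1 was at 57.3, 224 and 60.6 CPM in WT, 52.1, 171 and 35.4 CPM in LysM-DKO and 117 and 147 CPM in ABCG1KO. Ifitm3 was at 296, 315 and 55.3 CPM in WT, 49.6, 146 and 87.5 CPM in LysM-DKO and 240 and 75.1 CPM in ABCG1KO, and 10.02% of its sequence is shared with other annotated genes. For Irf1 both ABCG1KO libraries exceeded WT 1 and WT 3 and lay below WT 2. Gbp2 had a log2 fold change of -1.72 ± 1.44 (SE, adjusted p = 0.458), which turned to 1.05 without WT 2.

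Between the knockouts, 5 of the 39 genes were called (12.8%), against 13.4% of all genes. Oasl2, Ddx58, Xaf1 and Trim30a were higher in LysM-DKO than in ABCG1KO, and Ifnar1 was lower. The shares were 10.3% higher (7.76% of all genes) and 2.56% lower (5.64% of all genes), with a median log2 fold change of 0.52 against 0.03 for all genes. Log2 fold changes were 2.16 ± 0.57 (SE) for Oasl2, 1.03 ± 0.27 for Ddx58, 1.68 ± 0.45 for Xaf1 and 0.82 ± 0.23 for Trim30a, with edgeR adjusted p-values of 0.0447, 0.0399, 0.0442 and 0.0486. For each of the 4 genes all LysM-DKO libraries exceeded both ABCG1KO libraries.

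Ifnar1 was called in every alternative of this comparison, and each of the other 4 genes lost the call in several. Without WT 3, LysM-DKO 2, LysM-DKO 3, ABCG1KO 1 or ABCG1KO 2, only Ifnar1 remained of the 5. In that order, the share of all genes called was 10.4%, 7.33%, 10.2%, 3.93% and 13.7%. Without overlap, 13 of 39 genes were higher in LysM-DKO, against 25.6% of all genes, and 3 were lower, against 22.6%: Samhd1, Ifnar1 and Ifnar2. This comparison shares its ABCG1KO libraries with that of ABCG1KO against WT.

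Outside the 39, a list of 66 other interferon-induced genes had 64 tested. In ABCG1KO, 13 of these fell and 1 rose by edgeR, with a median log2 fold change of -0.58, against 8.83% and 7.21% of all genes. Those that fell with the lowest adjusted p were Mnda (28.7, 30.1 and 15.9 CPM in WT, 5.39 and 3.87 CPM in ABCG1KO), Phf11a (2.73, 7.29 and 2.15 CPM in WT, 0.502 and 0.377 CPM in ABCG1KO), and Sp100, a component of nuclear bodies (55.0, 82.9 and 63.1 CPM in WT, 35.7 and 26.7 CPM in ABCG1KO), with adjusted p-values of 0.0053, 0.0180 and 0.0201. Of the sequence of Phf11a, 35.2% is shared with other annotated genes, so its counts are uncertain. Without WT 2, 2 of 63 genes fell and 1 rose, against 5.28% and 3.37% of all genes, and the median was -0.11. In LysM-DKO, 0 of 64 were called by edgeR and by DESeq2. At an unadjusted p under 0.05 there were 0 and 4, against 1611 and 1869 of 13821 genes.

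Of 24 genes for signalling and sensing, 4 rose and 3 fell in ABCG1KO by edgeR (16.7% and 12.5%, against 7.21% and 8.83% of all genes). None was called in LysM-DKO by edgeR or DESeq2. With these 2 methods, 4 and 5 had an unadjusted p under 0.05 in LysM-DKO, against 1611 and 1869 of 13821 genes. Traf3, an adaptor on the way from RNA sensors to interferon production, rose from 30.0, 35.2 and 36.3 CPM in WT to 72.3 and 71.1 CPM in ABCG1KO, with a log2 fold change of 1.08 ± 0.14 (SE) and an adjusted p of 0.0021. Ticam1, the adaptor TRIF of Toll-like receptor 3, fell from 49.2, 55.2 and 42.6 CPM to 24.8 and 24.4 CPM, with a log2 fold change of -0.995 ± 0.175 (SE) and an adjusted p of 0.0087. Jak1 was at 256, 380 and 337 CPM in WT and 283 and 309 CPM in ABCG1KO, and Tyk2 at 75.2, 99.0 and 94.1 CPM and 82.3 and 75.1 CPM, and the ABCG1KO values of both receptor kinases overlapped those of WT or lay at their lower edge. Without WT 2, 1 gene of this list rose and 1 fell, against 3.37% and 5.28% of all genes.

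Of 13 negative regulators, 2 rose in ABCG1KO by edgeR and none fell (15.4% called, against 16.0% of all genes). Socs3, which blocks cytokine receptor signalling to STAT3, was at 9.76, 12.5 and 4.06 CPM in WT, 11.1, 27.8 and 11.6 CPM in LysM-DKO and 103 and 44.6 CPM in ABCG1KO, with a log2 fold change of 3.07 ± 0.60 (SE) and an adjusted p of 0.0155. Irf2bp2, a corepressor, was at 121, 120 and 121 CPM in WT and at 374 and 166 CPM in ABCG1KO. Without WT 2, 1 of the 13 rose, against 3.37% of all genes. Socs1, the main feedback inhibitor of interferon receptors, was low, at 1.06, 3.17 and 0.414 CPM in WT and 3.45 and 2.03 CPM in ABCG1KO.

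Markers of other cells moved with ABCG1KO as well. Summed neutrophil markers (9 of 10 found) were at 354 and 207 CPM in ABCG1KO and 64.2 to 135 CPM in the other libraries. Nearly all of this was Csf3r, at 348 and 204 CPM against 59.6 to 130 CPM, which macrophages can also express. Of the 4 neutrophil markers tested, Csf3r rose by edgeR (adjusted p = 0.0131), 1 other had a positive and 2 a negative log2 fold change, and the granule genes Mpo, Elane, Camp and Ngp were at or near 0 in every library. Summed mast cell markers were at 56.0 and 13.2 CPM against 0.872 to 5.94 CPM. Summed markers of plasmacytoid dendritic cells, the main producers of interferon alpha, were at 180 and 150 CPM against 207 to 249 CPM, and the members went both ways. Lair1, which other immune cells share, fell to 87.7 and 69.5 CPM from 125 to 144 CPM in WT (edgeR adjusted p = 0.0145), while Siglech, the defining marker, was at 5.67 and 4.76 CPM in ABCG1KO and at 0 in all WT libraries. Of the 7 markers tested, 3 had a positive and 4 a negative log2 fold change. Summed fibroblast and mesothelial markers were at 164 and 1202 CPM in ABCG1KO, 788, 852 and 920 CPM in WT and 682, 1005 and 1707 CPM in LysM-DKO. Of these 10 markers, 2 had a positive and 8 a negative log2 fold change in ABCG1KO against WT. The part of these cell types in the lower Oasl1, Oasl2, Rsad2 and Ddx58, in the higher Ifnar1 and in the spread within LysM-DKO was not tested.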

How the data were processed

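RNA was sequenced from macrophages in 8 libraries. The authors deposited counts per gene symbol, one table per library, with counter lines of HTSeq at the end, which entered neither library sizes nor tests. The submitters' processing notes name STAR 2.7.9a, TopHat, HTSeq 0.11.2, DESeq2 1.30.1, limma and mm10, with no role or order. The strand setting and the annotation are not given in the sources used here.

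These counts were fitted without change in edgeR 4.0.16 (R 4.3.3): filterByExpr by group, TMM factors, a robust quasi-likelihood fit of all 8 libraries with a term per group and no covariate, and the F test for each pair of groups. Calls required a Benjamini-Hochberg adjusted p under 0.05 over the 13821 genes tested. The fit was tested on simulated data. A count of 0 allows up to 3 counts (0.0716 to 0.101 CPM over library sizes without TMM factors), for counting error only.

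The genes, gene lists and tests were chosen with earlier results of these data known, and fold changes of lists are described without a test. Values in every library are given for genes called in any comparison, for Ifnar1, Ifnar2, Stat2, Irf9, Irf7, Usp18 and Isg15, for the 5 with the largest ratio of WT 2 to the next WT library at a mean of at least 1 CPM, and for the 5 highest in mean CPM. From other lists at most 4 genes are named, called or else highest, except for Iigp1, Cxcl9, Ciita, Gbp5, Ifng, Socs1, Jak1 and Tyk2, named after their values were seen, as were Oas3 and Bst2 among the 39. Exon lengths, overlaps and sequence shared with other genes (50-base words) came from GENCODE for GRCm38, the genome of mm10, and promoters from RefSeq. The alternatives were RLE factors, library size only, DESeq2 1.42.0, no count filter, a fit of both groups alone, a replicate block, and leaving out each library. A fit without WT 2 and LysM-DKO 2 was added after seeing the data.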

Additional observations from a re-analysis of the deposited data

How the results depend on the processing

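Ifnar1 was called in every alternative of both comparisons with ABCG1KO, and Oasl1 in every alternative of ABCG1KO against WT; the cause of the other changes was not tested. For LysM-DKO against WT, the 5 calls among all genes became 301 with DESeq2, 8 with a fit of both groups alone and 0 without WT 2 and LysM-DKO 2, and DESeq2 called 2 of the 39. For ABCG1KO against WT, 10 of the 39 were called with DESeq2, and 3 (853 of all genes) without WT 2 and LysM-DKO 2. For LysM-DKO against ABCG1KO, 1 of the 39 was called with library size only, 8 (2982 of all genes) with DESeq2, 2 (948) with a fit of both groups alone and 2 (683) without WT 2 and LysM-DKO 2. In both comparisons with ABCG1KO, the fit without WT 2 and LysM-DKO 2 called Ifnar1 and Irf1, and against WT also Oasl1. Irf1, higher in ABCG1KO there, was not called with all 8 libraries.

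With a single library left out, calls among all genes ran from 0 to 8 for LysM-DKO against WT, from 853 to 2090 for ABCG1KO against WT and from 561 to 1960 for LysM-DKO against ABCG1KO, and calls among the 39 from 0 to 0, 2 to 6 and 1 to 4. With the replicate block, calls among all genes were 0, 1456 and 1024, and among the 39 they were 0, 3 and 1. Same-numbered libraries did not all deviate together (r across genes from -0.108 to 0.475, the highest for WT 2 and LysM-DKO 2), and the labels name no shared source, so the numbers were not taken to pair the libraries. With a single library left out, log2 fold changes in LysM-DKO against WT ran from -0.76 to 0.21 for Stat2, -2.05 to 0.25 for Irf7, -3.14 to 0.87 for Gbp2 and -1.12 to 1.21 for Ifit2, each positive only without WT 2. Without LysM-DKO 2 as well, Irf7 was at 0.58 and Ifit2 at 0.90. Gbp2 in ABCG1KO against WT ran from -2.30 to 1.05, and was at 1.06 without WT 2 and LysM-DKO 2.

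Without scaling factors the median change of all genes moved to 0.17 for LysM-DKO and 0.25 for ABCG1KO against WT, the medians of the 39 to -0.04 and -0.45, and calls in ABCG1KO to 2074 higher and 856 lower, against 996 and 1220 with TMM. The fitted direction changed for 4 and 5 of the 39 against WT. Calls in LysM-DKO against ABCG1KO became 877 higher and 1017 lower, against 1073 and 780. Gbp2 spread 20.6-fold and Ifit2 10.4-fold among the WT libraries, wider than the changes fitted for them against WT.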

Other observations

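Among immunity-related GTPases and further guanylate-binding proteins, which attack the vacuoles of intracellular microbes, all 12 in the list of other interferon-induced genes were higher in both WT 2 and LysM-DKO 2 than in any of the other 6 libraries, as were 3.90% of all genes tested. This pattern was picked after the values were seen and carries no test. Gbp4 was at 24.2 CPM in WT 2 and 19.2 CPM in LysM-DKO 2 and reached at most 0.275 CPM in the remaining 4 libraries of these groups. Gbp6 was at 31.3 and 34.2 CPM in these 2 libraries against 0.621 to 3.80 CPM in the others of both groups, and Irgm2 at 64.5 and 74.8 CPM against 18.7 to 22.5 CPM. Of the sequence of Gbp6, 70.7% is shared with other annotated genes, Gbp4 among them, so its counts are uncertain. Tgtp2 was at 53.2 and 53.0 CPM against 0.311 to 0.850 CPM, with 86.6% of its sequence shared with other annotated genes. In ABCG1KO, Gbp4 was at 1.47 and 0.377 CPM and Tgtp2 at 0.909 and 1.41 CPM.

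Among genes of the Ifi200 family, which sense DNA, Ifi204 and Mndal fell in ABCG1KO; these were also picked with their values in view. Ifi204 was at 91.2, 101 and 51.8 CPM in WT, 82.2, 118 and 150 CPM in LysM-DKO and 37.3 and 32.6 CPM in ABCG1KO, and Mndal at 44.6, 57.1 and 40.8, at 26.3, 38.99 and 46.9, and at 21.6 and 9.98 CPM. Slfn5, a Schlafen family gene, was at 154, 255 and 238 CPM in WT and at 90.0 and 107 CPM in ABCG1KO. By edgeR the adjusted p-values against WT were 0.0420, 0.0249 and 0.0206. Of the sequence of Ifi204, Mndal and Slfn5, 20.0%, 19.6% and 11.1% is shared with other annotated genes, so their counts are uncertain. Ifngr1, a chain of the interferon gamma receptor, rose beside Ifnar1, from 190, 126 and 137 CPM in WT to 344 and 274 CPM, with an adjusted p of 0.0323.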
